A study of Mus musculus with 8 samples.

Results

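The nuclear receptor genes, a family of transcription factors many of which are switched by small lipophilic ligands, were followed in Apc-deleted mouse intestinal organoids between day 7 and day 20. The members were 41 genes, taken from a list of symbols and not from their values. Of these 41, 38 were among the 19057 genes with a named probe on the array, and where a gene had several probes the one brightest on average across the 8 arrays stood for it. Nr1h2, Nr2e3 and Nr2f1 had no probe named to them here and were not analysed.

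Organoids, 3-dimensional epithelial cultures grown from intestinal crypts, came from C57Bl mice aged 2 to 3 months with the genotype Lgr5-EGFP-IRES-CreER and Apcflox/flox. The Lgr5 promoter drives the tamoxifen-dependent Cre in intestinal stem cells, so deletion starts there. All 8 samples received tamoxifen for 2 days, after which the Wnt agonist R-Spondin1 was withheld to keep mutant cultures, for 5 days in the 4 day 7 samples and for 18 days in the 4 day 20 samples. All samples followed deletion, so time after deletion, time without R-Spondin1 and time in culture cannot be told apart. The labels do not say whether samples of a day were separate cultures or animals. What the p-values weigh is then just how far these samples scatter, and that scatter may be technical where samples share a culture or animal.

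Nuclear receptors bind DNA through a zinc-finger domain, often at repeats of a short half-site, and change transcription through coactivators and corepressors. Many pair with a retinoid X receptor. In the intestinal epithelium several are known as sensors of what the gut absorbs: vitamin D, retinoids, fatty acids, oxysterols, bile acids and foreign compounds. Others have no agreed natural ligand and are called orphan receptors.

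The arrays carry no counts, and their number limits the precision. Deposited values are log2 intensities that are not background-subtracted to 0, so changes of dim genes are compressed. A background limit of 6.796, set from the lower side of the peak of dim values, separated probes with signal from those without. Within its day, day 7 replicate 2 stood apart, with r of 0.973 to 0.980 across tested genes against the other day 7 arrays, where these correlated at up to 0.994 (genes are not independent replicates). Day 20 replicates 1 and 4 lacked signal of Xist, the X-inactivation transcript (6.68 and 6.74, against 9.39 to 10.41 on the other 6 arrays). They showed the Y-linked gene Eif2s3y at 8.34 and 8.51, against 6.66 to 6.73 elsewhere, so samples of unlike sex were not balanced between the days. The day 20 samples thus came from more than 1 animal, and whether the day 7 samples did is unknown. Apc was 7.35 ± 0.12 on day 7 arrays and 7.28 ± 0.14 on day 20 arrays (SD, n = 4 per day), which checks nothing, since both days follow deletion and the probe's place relative to the deleted part is unknown here. All 9 epithelial markers were tested, of which Krt20, a keratin of differentiated epithelium, fell by 2.26 (limma adjusted p = 0.0382) and Cdx1, an intestinal transcription factor gene, rose by 0.47 (0.0328). The Krt20 call was lost without any single array except day 7 replicate 2 (limma adjusted p 0.0569 to 0.095), and the Cdx1 call without any except day 7 replicate 4 (0.0516 to 0.0923). Both were lost on the 6 arrays with Xist signal (limma adjusted p = 0.18 and 0.164) and with trended robust variance (0.0654 and 0.0512), Krt20 also with no filter (0.0615), and Cdx1 with background subtracted (0.064). The epithelial marker Epcam lay about the limit, at 6.75 to 7.00. Of the lists for other tissues, no endothelial (3 tested) or immune (2 tested) gene changed and no neuron or glia gene could be tested.

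Of the 38 members with a probe, 27 exceeded the limit on at least 4 of 8 arrays and were tested, 71.1% of them against 65.4% of all genes. On all 8 arrays 20 of them were above it, and the other 7 tested members (Rara, Nr1i3, Esr1, Nr3c1, Esrrb, Rora and Nr4a3) were not. The 11 untested members ranged from 6.55 to 6.91 over all arrays, and 2 of those, Rxrg and Nr3c2, never exceeded the limit. The other 9 untested members were Thrb, Ppara, Esr2, Pgr, Nr4a1, Nr5a1, Nr0b1, Nr0b2 and Nr2c2. A probe at background may miss a transcript that is present, so these genes were not detectable here rather than absent.

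**Figure D1:**
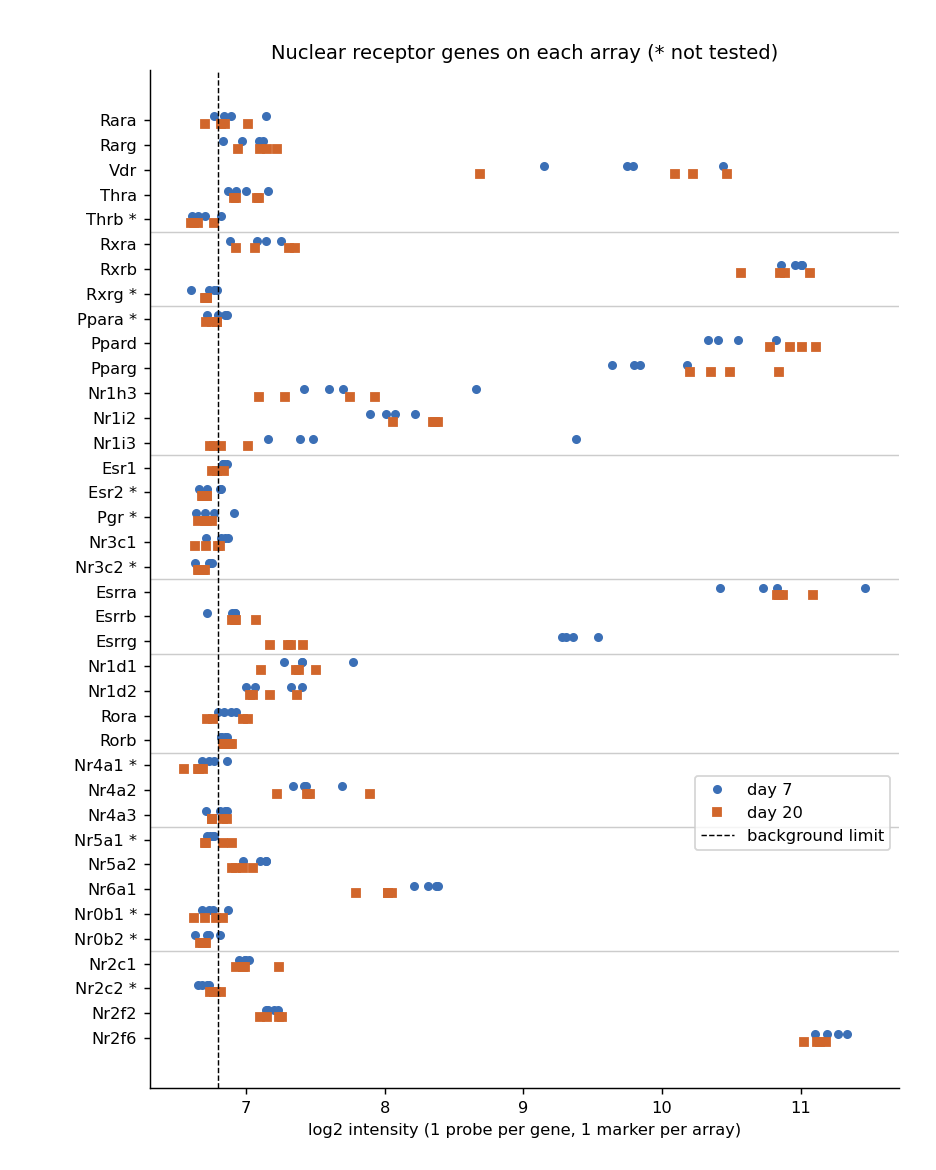
Log2 intensity (horizontal axis) of the 38 nuclear receptor genes with a probe, 1 marker per array (circles day 7, squares day 20), in the order of their roles; the dashed line is the background limit of 6.796 and an asterisk marks the 11 untested genes. Levels of different genes come from different probes and are not comparable. Esrrg shows a wide gap between its day 7 and day 20 markers, and the 11 untested genes lie about the line.

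Between the days 2 of the 27 tested members changed, both lower at day 20: Esrrg and Nr6a1 (limma, Benjamini-Hochberg adjusted p under 0.05 over all 12466 tested genes). That is 7.41% of the tested members, against 4.85% of all tested genes called in either direction. For lower calls the background was 2.33%, and no member was higher, where 2.51% of all genes were. With 27 genes these counts lie near the background, so they describe single genes and not the family. The median log2 difference of the tested members was 0.0025, and that of all tested genes was 0.005. Groups did not overlap for 4 tested members (Esrrg, Nr6a1, Pparg and Nr1i3), 14.8% against 13.1% of all tested genes. Of the 25 members that did not pass, 14 had a positive and 11 a negative difference, and 20 of the 27 differed by less than 0.15 on the log2 scale.

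**Figure D2:**
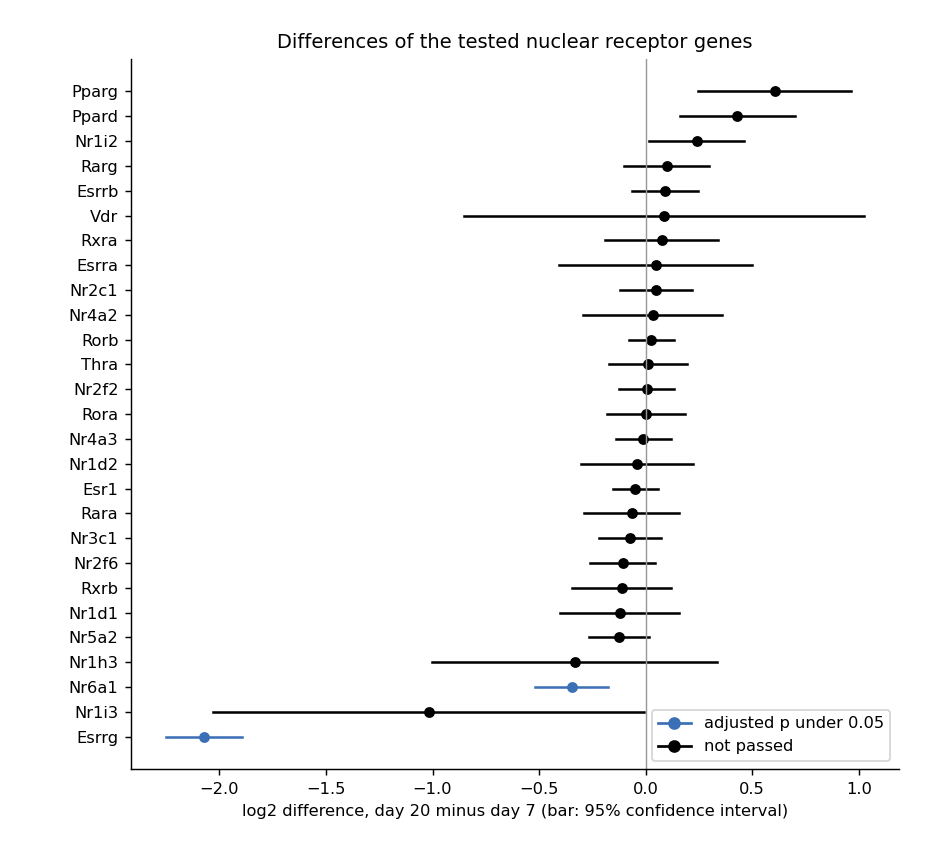
Log2 difference between day 20 and day 7 (points) with its 95% confidence interval (bars) for the 27 tested nuclear receptor genes, sorted by size. Esrrg at -2.07 and Nr6a1 at -0.35, in blue, passed the test; Vdr, Nr1h3 and Nr1i3 have the widest intervals.

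The estrogen-related receptors are orphan receptors that resemble the estrogen receptors but do not bind estrogen, and are known as regulators of mitochondrial and oxidative metabolism genes. Esrrg, encoding ERR gamma, gave log2 intensities of 9.31, 9.54, 9.28 and 9.36 on day 7 replicates 1 to 4. On day 20 replicates 1 to 4 it gave 7.41, 7.32, 7.30 and 7.17. Every day 20 array was below every day 7 array, by a gap larger than the spread within either day, and all 8 were above the background limit. The gene fell by 2.07 on the log2 scale (SE 0.08, 95% confidence interval -2.25 to -1.89), a 4.21-fold fall of unsubtracted intensity, from 9.37 ± 0.12 to 7.30 ± 0.10 (SD, n = 4 each). Its limma adjusted p of 3.05e-05 ranked 1 among the 12466 tested genes, while by size it was the fall of rank 36. The call held in all 17 alternative settings, with limma adjusted p from 3.51e-07 to 0.00241. On the 6 arrays with Xist signal the difference was -2.06.

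A second Esrrg probe moved the same way, from 7.71, 7.74, 7.74 and 7.84 at day 7 to 6.84, 6.89, 6.77 and 6.90 at day 20. Those 4 last values lie about the background limit, so background bounds the difference of -0.91 measured by that probe. The third probe was below the limit on all 8 arrays (6.64 to 6.75) and gave 0.03. Averaging the first and second probes gave -1.49.

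Esrra, encoding ERR alpha, was at 10.42, 11.46, 10.83 and 10.73 at day 7 and at 10.84, 10.87, 10.83 and 11.09 at day 20. The groups overlapped, day 7 replicate 2 was highest, and the difference of 0.05 did not pass (95% confidence interval -0.40 to 0.50, limma adjusted p = 0.93). Its other probe differed by 0.25. Esrrb, encoding ERR beta, stayed close to the limit, at 6.72 to 6.92 and 6.90 to 7.07 on the 2 days, with a difference of 0.09 (95% confidence interval -0.07 to 0.25). Whether the difference of Esrrg itself departs from those of Esrra and Esrrb was not tested.

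**Figure D3:**
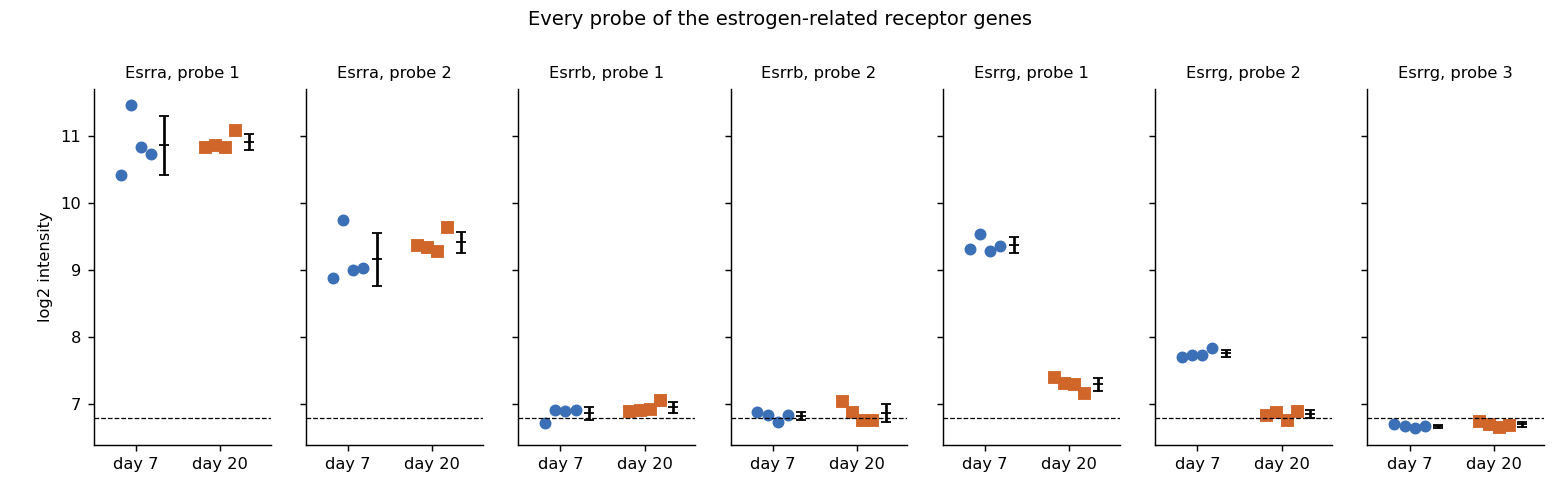
Log2 intensity of every probe of Esrra, Esrrb and Esrrg by day, 1 marker per array, with the mean and SD of the 4 arrays as black bars and the background limit as a dashed line. The first Esrrg probe drops from about 9.37 to 7.30 and the second from above 7.7 to the limit, while the Esrra probes keep overlapping groups.

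Several cell type marker lists moved along with Esrrg. All 12 tested enteroendocrine markers were lower at day 20, where the summed linear intensity of the list's 14 genes was 1624 to 1787, against 9814 to 15855 at day 7. Of 8 tested enterocyte markers 5 were lower, with sums of 1331 to 1564 at day 20. At day 7 these enterocyte sums were 10643 to 19673 on 3 arrays and 100379 on replicate 2. Intensities are not background-subtracted, so the day 20 sums of both lists are mostly background. Goblet markers were lower in 4 of 5 tested genes. Stem cell markers were lower in 4 of 6 tested genes (Lgr5, Olfm4, Rgmb and Slc14a1), with sums of 3349 to 4611 at day 7 and 2195 to 2598 at day 20. Among these calls Lgr5 was lost without day 7 replicate 1 or 4 or day 20 replicate 1, 2 or 4 (limma adjusted p up to 0.0613), and Olfm4 without day 7 replicate 1, 3 or 4 or day 20 replicate 4 (up to 0.0818), and both on the 6 arrays with Xist signal (0.125 and 0.0935). Of 5 tested Paneth markers 1, Mmp7, was higher (limma adjusted p = 0.0164, and 0.0516 without day 7 replicate 1) and none was lower. On day 7 replicate 2, where the enterocyte sum was highest, Esrrg was highest too, at 9.54, against 9.28 to 9.36 on the other day 7 arrays. In bulk samples fewer cells of a type and less RNA per cell cannot be told apart, and the part of these cell types in the fall of Esrrg was not tested.

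RefSeq lists 4 start regions for Esrrg and 2 for Nr6a1, each given as a window from 250 bases before to 50 after a start site. For each changed gene the window that held a searched motif is shown, read 5' to 3' on the gene's strand from mouse build GRCm38.p6. The motifs were the E-box CACGTG, which clock factors bind, the hypoxia response core ACGTG, which lies inside the E-box, and the nuclear receptor half-site AGGTCA, on both strands. Capitals mark the matches: 1 hypoxia response core in Esrrg (chr1:187651508-187651807, + strand) and 2 half-sites on the reverse strand in Nr6a1 (chr2:38784466-38784765, - strand).
Esrrg: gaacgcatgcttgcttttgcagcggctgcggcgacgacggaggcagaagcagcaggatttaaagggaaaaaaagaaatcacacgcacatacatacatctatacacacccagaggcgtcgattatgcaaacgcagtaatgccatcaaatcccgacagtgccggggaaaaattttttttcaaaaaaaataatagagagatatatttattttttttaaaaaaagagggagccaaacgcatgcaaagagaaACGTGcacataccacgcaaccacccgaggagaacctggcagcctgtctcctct
Nr6a1: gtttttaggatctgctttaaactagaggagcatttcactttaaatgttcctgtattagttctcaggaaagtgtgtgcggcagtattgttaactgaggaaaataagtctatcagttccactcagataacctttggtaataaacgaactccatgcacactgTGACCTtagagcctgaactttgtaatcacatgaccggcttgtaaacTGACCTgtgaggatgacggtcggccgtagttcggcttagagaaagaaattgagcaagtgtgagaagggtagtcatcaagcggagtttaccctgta
The other 4 windows of these genes held none of the 3 motifs. The windows of 1 chromosome were left out of the counts that follow. Over the remaining 32851 windows, 19.6% held the hypoxia response core, 16.3% the half-site and 7.15% the E-box. Of the 58 windows of 38 member genes, 15 held the core, 11 the half-site and 6 the E-box. These 38 genes were drawn from all 41 listed members, with or without a probe. A match describes letters only, and which start the organoids use was not tested.

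Nr6a1, also called germ cell nuclear factor, is an orphan receptor known in the mouse embryo and germ line as a repressor of pluripotency genes. Its single probe gave 8.37, 8.21, 8.31 and 8.38 on day 7 replicates 1 to 4. At day 20 it gave 7.79, 8.02, 8.05 and 8.02, with replicate 1 lowest and every array below those of day 7. The fall of 0.35 on the log2 scale (SE 0.07, 95% confidence interval -0.52 to -0.18) had a limma adjusted p of 0.0378. This call was near the threshold. It was lost without day 7 replicate 1 (limma adjusted p = 0.104), 3 (0.0833) or 4 (0.0895) and without day 20 replicate 1 (0.0585), 2 (0.0713), 3 (0.0551) or 4 (0.0723). It was also lost on the 6 arrays with Xist signal (limma adjusted p = 0.119), with trended robust variance (0.0943) and with background subtracted (0.0696), whereas the direction never changed.

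Among the relatives of Nr6a1 no call was made. Nr5a2, encoding LRH-1, which in mouse crypts is known for supporting renewal and local glucocorticoid synthesis, was at 6.98 to 7.14 at day 7 and 6.90 to 7.05 at day 20. Its difference of -0.125 did not pass (95% confidence interval -0.26 to 0.01, limma adjusted p = 0.29). Nr5a1, the steroidogenic factor of adrenal and gonad, and the atypical receptors Nr0b1 (DAX1) and Nr0b2 (SHP, which lack a DNA-binding domain of the usual kind) were not tested.

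Among the lipid and xenobiotic sensors no gene passed, but 2 of the PPAR genes lay close to the threshold. Pparg, encoding a receptor for fatty acid derivatives known for its part in lipid storage and colonic epithelial differentiation, was at 10.18, 9.64, 9.80 and 9.84 at day 7. At day 20 it was at 10.35, 10.49, 10.84 and 10.20. The groups did not overlap, yet the 2 nearest arrays, 10.18 and 10.20, were almost level. Its difference of 0.605 (95% confidence interval 0.25 to 0.96) had a limma adjusted p of 0.0701, and it passed with trended robust variance alone (0.0419). Another Pparg probe near the limit differed by 0.14 and the last, at background, by -0.04.

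Ppard, a widely expressed fatty acid receptor described as a Wnt-responsive gene in human colorectal cancer cells, was at 10.40, 10.33, 10.82 and 10.55 at day 7 and at 10.78, 11.01, 11.11 and 10.92 at day 20. Day 7 replicate 3 overlapped the day 20 arrays. The difference was 0.43 (95% confidence interval 0.16 to 0.70, limma adjusted p = 0.0815) and it passed only without that array (0.53, limma adjusted p = 0.0386). The other Ppard probe, about the limit at 6.75 to 6.85, differed by 0.02, and averaging the probes gave 0.225. Ppara, which drives fatty acid oxidation genes, was above the limit on 3 day 7 arrays and none at day 20, with a highest value of 6.86.

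Nr1i3, encoding the xenobiotic sensor CAR, was at 7.48, 9.38, 7.39 and 7.16 at day 7 and at 6.74, 6.82, 7.01 and 6.77 at day 20, where 2 arrays exceeded the limit. Day 7 replicate 2 stood far above the rest, although all day 20 arrays were below all day 7 arrays. With that array the difference was -1.02 and did not pass (95% confidence interval -2.03 to -0.01, limma adjusted p = 0.24). Without it the difference was -0.51 and passed (limma adjusted p = 0.0333), and with background subtracted it was -2.28 (0.0555). Another 2 of its 5 probes had the same high array, at 9.01 and 8.26.

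Nr1h3, encoding the oxysterol receptor LXR alpha, was likewise highest on day 7 replicate 2, at 8.66, while the remaining day 7 values were 7.42 to 7.70 and the day 20 values 7.09 to 7.93. Its difference of -0.33 did not pass (95% confidence interval -1.002 to 0.337) and was -0.06 without that array. Nr1i2, encoding PXR, the sensor of foreign compounds that partners CAR in drug metabolism, was at 7.89 to 8.22 at day 7 and 8.06 to 8.38 at day 20 (difference 0.24, 95% confidence interval 0.02 to 0.46, limma adjusted p = 0.21). Over the 27 tested members, 7 had their highest value of all 8 arrays on day 7 replicate 2, 25.9% against 15.8% of all tested genes. The part of enterocyte RNA in these values was not tested.

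**Figure D4:**
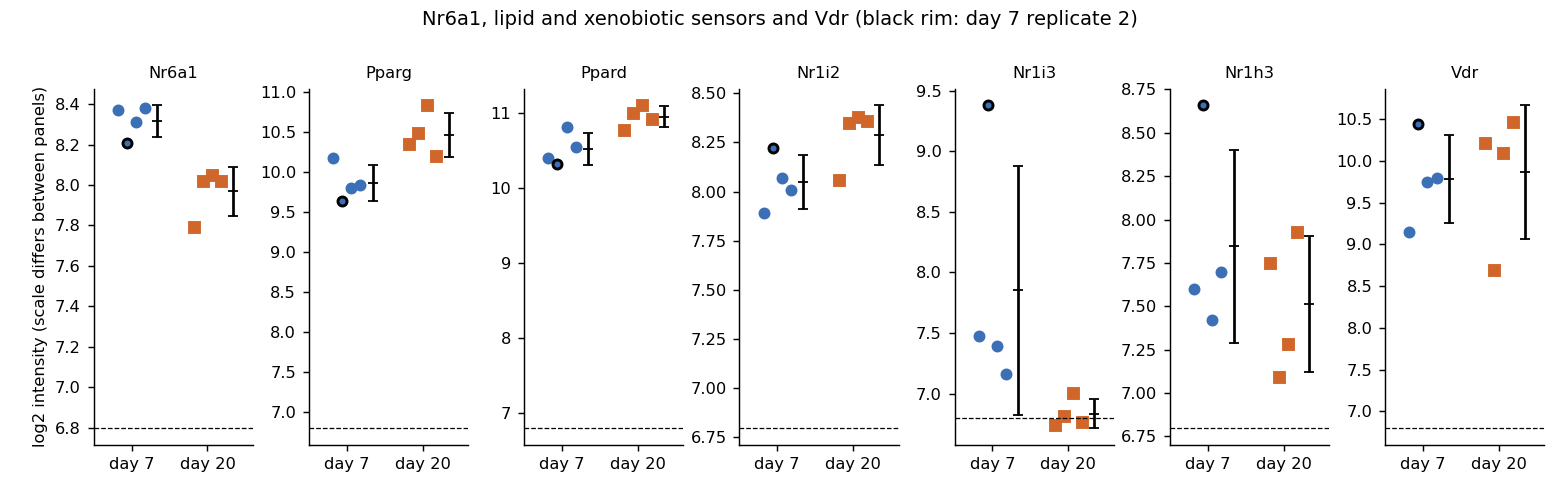
Log2 intensity of Nr6a1, Pparg, Ppard, Nr1i2, Nr1i3, Nr1h3 and Vdr by day, 1 marker per array, with mean and SD of 4 arrays as black bars and the background limit as a dashed line; each panel has its own vertical scale. Day 7 replicate 2, rimmed in black, is the highest array for Nr1i3 at 9.38 and Nr1h3 at 8.66, and for Vdr the arrays of each day spread over more than the difference between days.

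The vitamin D receptor gene Vdr, whose product controls intestinal calcium uptake, varied widely within both days. It was at 9.15, 10.44, 9.75 and 9.79 at day 7 and at 10.22, 8.69, 10.09 and 10.47 at day 20. The lowest array was day 20 replicate 2, and its other 2 probes were also lowest or near lowest there (8.48 and 7.22). The mean difference of 0.085 did not pass (95% confidence interval -0.85 to 1.02, limma adjusted p = 0.94). It was 0.48 without day 20 replicate 2 and -0.39 on the 6 arrays with Xist signal, so these data give no direction for Vdr. Of the nuclear hormone receptors that respond to retinoic acid, Rara was at 6.70 to 7.14 and Rarg at 6.83 to 7.22 over all arrays, with differences of -0.065 and 0.10. The thyroid hormone receptor gene Thra was at 6.87 to 7.16, and its difference of 0.01 had a 95% confidence interval of -0.17 to 0.19.

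The retinoid X receptors are the shared partners of many, but not all, nuclear receptors. Rxrb was bright on every array, from 10.57 to 11.07, with a difference of -0.11 (95% confidence interval -0.35 to 0.12, limma adjusted p = 0.60). Rxra was at 6.88 to 7.35 and differed by 0.075 (95% confidence interval -0.19 to 0.34).

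Receptors for steroids gave little signal in these cultures. Nr3c1, the glucocorticoid receptor gene, was above the limit on 3 day 7 and 2 day 20 arrays, with a highest value of 6.87. Esr1, encoding estrogen receptor alpha, had a highest value of 6.86 and exceeded the limit on 4 and 1 arrays. Neither difference passed, at -0.075 and -0.05. Esr2, Pgr and the mineralocorticoid receptor gene Nr3c2 were not tested, and Nr3c2 exceeded the limit on no array. Beside these, the mesenchymal markers, of which fibroblasts of the crypt wall would be a source, were tested in 4 of 10 genes and none passed. The smooth muscle actin gene Acta2 was at 9.98, 8.99, 8.89 and 7.94 at day 7 and at 7.07, 7.90, 7.17 and 7.03 at day 20, a difference of -1.66 without overlap (limma adjusted p = 0.0545). Acta2 passed without day 7 replicate 4 (-1.99, limma adjusted p = 0.0222), with the strict filter (0.0465) and with background subtracted (-2.62, 0.0142). It passed in these 3 of 17 alternatives only. Over all 17 its difference ran from -2.62 to -0.62, with limma adjusted p up to 0.24. The summed level of the list was 1238 to 2007 at day 7 and 1111 to 1219 at day 20. These sums did not overlap, but they include Acta2, the brightest gene of the list. The other tested genes of the list, Col1a2, Pdgfra and Des, had overlapping groups and differed by -0.075, 0.0325 and -0.03. Col1a1 was above the limit on no array.

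The REV-ERB and ROR receptors close the negative and positive arms of the circadian clock. Nr1d1, encoding REV-ERB alpha, was at 7.27, 7.40, 7.40 and 7.77 at day 7 and at 7.50, 7.11, 7.38 and 7.36 at day 20, overlapping throughout. Its difference of -0.12 did not pass (95% confidence interval -0.40 to 0.16). Nr1d2, encoding REV-ERB beta, differed by -0.04, Rora by 0.0025 and Rorb by 0.03, the last 2 from probes with no value above 7.01.

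The NR4A receptors are immediate early genes. Nr4a2 was at 7.34 to 7.69 at day 7 and 7.22 to 7.89 at day 20, a difference of 0.03 (95% confidence interval -0.29 to 0.36). Nr4a3 lay about the limit and differed by -0.01. Of the remaining orphan receptors Nr2f6, a repressor also called EAR2, was at 11.10, 11.33, 11.27 and 11.19 at day 7 and 11.02, 11.18, 11.12 and 11.14 at day 20. The groups overlapped and its difference of -0.11 did not pass (95% confidence interval -0.26 to 0.05, limma adjusted p = 0.42). The testicular receptor gene Nr2c1 differed by 0.05, and Nr2f2, encoding COUP-TFII, a receptor known in mesenchyme and veins of the mouse, by 0.005 (95% confidence interval -0.12 to 0.13).

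Partners and known targets of these receptors were read from 12 lists of 126 genes, of which 84 were tested. Of the 84, 6 were higher and 2 lower at day 20 (2.51% and 2.33% of all tested genes), with a median difference of -0.02 against 0.005 over all genes. No coregulator changed among 17 tested (median -0.08), where the next by p were the histone methyltransferase gene Nsd1 at -0.46 (limma adjusted p = 0.12) and the acetyltransferase gene Ep300 at -0.31 (0.16).

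Outside the 41 members, 6 other nuclear receptor genes were tested and 1, Rarb, rose. Rarb, a retinoic acid receptor gene that retinoic acid induces through its own class of receptors, was at 6.85, 6.71, 6.84 and 6.92 at day 7 and at 7.40, 7.38, 7.44 and 7.48 at day 20. Groups were separate, and the rise of 0.595 (limma adjusted p = 0.00173) became 0.38 with probes averaged and 1.73 with background subtracted, as its day 7 values lie about the limit. It was the only gene called among 10 tested of the retinoid list, which also holds it. Hnf4a, a receptor that maintains enterocyte identity, differed by 0.17 (limma adjusted p = 0.66) and its relative Hnf4g by -0.20 (0.33).

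Targets of PXR and CAR, genes of drug metabolism, had 1 lower gene of 8 tested (median -0.52). Cyp3a13, a cytochrome P450 gene, was at 10.92, 13.12, 11.50 and 11.28 at day 7 and at 9.86, 8.75, 8.99 and 9.26 at day 20, highest on day 7 replicate 2. It fell by 2.49 (limma adjusted p = 0.0225). The call was lost without day 7 replicate 3 (limma adjusted p = 0.0566), without day 20 replicate 2 (0.0588), 3 (0.0546) or 4 (0.0591) and on the 6 arrays with Xist signal (0.0617). Abcc3, an efflux transporter gene, differed by 0.47 without passing (limma adjusted p = 0.0529), though it passed with array weights (0.0452), the strict filter (0.0491) and averaged probes (0.04998). The P450 genes Cyp2b10 and Cyp3a11 differed by -1.27 and -2.23 without overlap and did not pass (limma adjusted p = 0.14 and 0.16), both highest on day 7 replicate 2. Without that array Cyp3a11 passed (-1.32, limma adjusted p = 0.00282), as it did with background subtracted (-4.25, 0.0119). LXR targets had no call among 5 tested (median -0.45). The sterol exporter genes Abcg5 and Abcg8 differed by -1.49 and -1.38 (limma adjusted p = 0.10 and 0.11), and both were highest on day 7 replicate 2, at 12.32 and 11.49. Lpcat3, a phospholipid remodelling enzyme gene, differed the other way, by 0.485 (95% confidence interval 0.01 to 0.96, limma adjusted p = 0.23; 0.69 and 0.0218 without day 7 replicate 2), and Npc1l1, the cholesterol uptake transporter gene, by -0.45 (0.49). PPAR targets had none called of 9 (median -0.17), with Acaa2 at -0.62 and Creb3l3 at -1.21; Creb3l3 passed without day 7 replicate 2 (-0.61, limma adjusted p = 0.00632) and with background subtracted (-2.69, 0.0366).

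Of 8 tested targets of the glucocorticoid and mineralocorticoid receptors, 2 were higher (median 0.14). Fkbp5, a cochaperone gene that glucocorticoids induce strongly, was at 7.60, 7.85, 7.91 and 8.23 at day 7 and at 9.20, 9.03, 9.09 and 8.91 at day 20. It rose by 1.16 (SE 0.13, limma adjusted p = 0.00264), a call kept in all 17 alternatives. Scnn1a, a subunit of the epithelial sodium channel, rose by 0.41 (limma adjusted p = 0.042). Its call was lost without day 7 replicate 1 (limma adjusted p = 0.104), 3 (0.102) or 4 (0.064), without day 20 replicate 1 (0.0863), 2 (0.0538), 3 (0.0793) or 4 (0.092), with no filter (0.0546) and with the 2 arrays lacking Xist signal left out (0.175). With background subtracted its difference was 1.03. Klf9 and Sgk1, also of this list, differed by 0.61 and -1.25 without passing (limma adjusted p = 0.22 and 0.33). Sgk1 peaked on day 7 replicate 2, at 11.26. Its remaining day 7 values, 7.99 to 8.58, overlapped those of day 20, 7.41 to 8.10. The Sgk1 difference ran from -1.64 to -0.51 over the 17 alternatives.

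The clock list had 2 higher genes of 12 tested (median 0.02), both repressors of the clock's activating arm. Ciart was at 7.78 to 8.06 at day 7 and 8.54 to 8.81 at day 20, a rise of 0.78 (limma adjusted p = 0.00226). Bhlhe40, which low oxygen also induces, was at 9.14 to 9.33 at day 7 and 9.98 to 11.10 at day 20, a rise of 1.24 (limma adjusted p = 0.0161). Leaving out day 7 replicate 1 moved that p to 0.0533. Markers of low oxygen moved alongside, with 5 of 8 tested higher and none lower, and their part in these values was not tested. Clock differed by -0.68 without passing (limma adjusted p = 0.0702, and 0.0369 with trended robust variance). Of the thyroid list 1 of 4 tested changed (median 0.14). Hr, a corepressor gene that thyroid hormone induces in brain, fell by 0.58 (limma adjusted p = 0.0193), by 0.33 with probes averaged. Klf9 and Me1, also of this list, differed the other way, by 0.61 and 0.37, and Dio1 by -0.095, all without passing. Me1 passed in 1 of 17 alternatives (limma adjusted p = 0.0377). The Hr call was lost without day 7 replicate 3 (limma adjusted p = 0.0513), without day 20 replicate 2 (0.0537) or 4 (0.0522) and on the 6 arrays with Xist signal (0.0673). Of 3 tested estrogen- and progesterone-responsive genes (median -0.285), Greb1 rose by 1.04 (limma adjusted p = 0.0114), from 8.30 to 8.49 on the day 7 arrays to 9.01 to 9.88 at day 20. Pdzk1 and Igfbp4, the rest of those tested, differed the other way, by -0.505 and -0.285, without passing (limma adjusted p = 0.61 and 0.69). Pdzk1 peaked on day 7 replicate 2, at 10.29. Its remaining day 7 values, 7.89 to 8.75, overlapped those of day 20, 7.94 to 8.86. Its difference ran from -0.82 to -0.02 over the 17 alternatives. No call was made among the 3 tested VDR targets (Trpv6 at 0.105, Atp2b1 at -0.13) or the 2 tested LRH-1 targets (Ccne1 at 0.29, Shmt2 at 0.39).

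**Figure D5:**
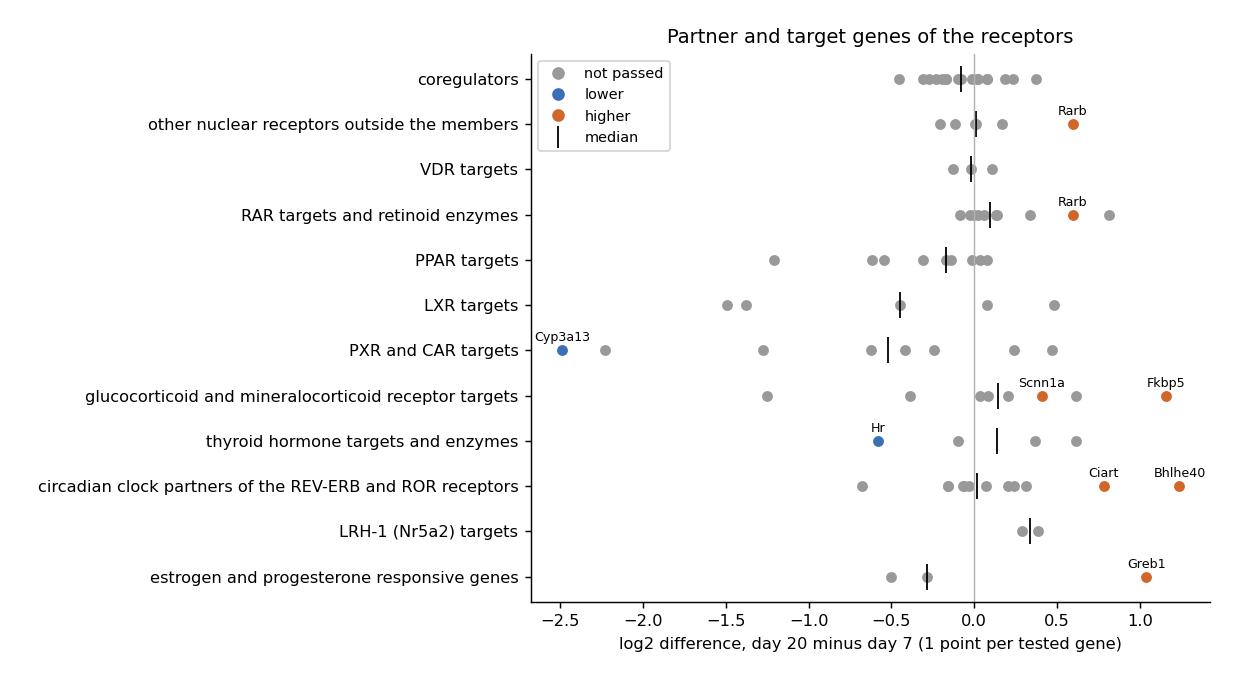
Log2 difference between day 20 and day 7 for each tested gene (points) of 12 lists of receptor partners and targets, with the list median as a black tick; orange and blue points passed the test higher and lower at day 20. The called genes, named, are spread over 6 lists besides the receptors outside the members, and Cyp3a13 at -2.49 is the one farthest from 0.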

How the data were processed

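Log2 intensities deposited by the authors for 8 Illumina mouse arrays (biotin-labelled cRNA, per the labels' protocols) were used as given. Software, background correction and normalization: not given in the sources used here. All arrays share 1 distribution (median 6.81, range 6.45 to 15.43). A second deposited table was not used, since its 16 per-sample columns match no sample label. Gene symbols came from the array platform's annotation (34885 of 45281 with 1 symbol, 18 with several, 10378 unnamed here), checked against RefSeq of GRCm38.p6, which also gave the promoter windows.

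The background limit was the mode, 6.7, plus the normal deviate at 0.05 times 0.0584, the SD below the mode; a strict limit at 0.01 was 6.836. Genes above it on at least 4 arrays entered limma 3.58.1 (R 4.3.3; lmFit, eBayes, no covariates, two-sided, Benjamini-Hochberg over 12466 genes), which was tested on simulated data. Differences are day 20 minus day 7. Plots and tables used Python 3.11.15 and matplotlib 3.10.9.

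Every member with a probe was named, and of each target list up to 4 tested genes with the smallest adjusted p. The marker genes named singly were chosen after their values were seen. The AGGTCA motif was added after the data were seen. Members and lists were chosen with earlier results of these data known. Alternatives were a replicate block, averaging a gene's probes, cyclic loess, array weights, trended robust variance, no filter or a strict one, the 6 arrays with Xist signal, the background mode subtracted with an offset of 16, and each array left out. Log2 values carry no depth.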

Additional observations from a re-analysis of the deposited data

Results flagged for a closer look

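Each group of 4 arrays of the 27 tested members was searched for an array whose gap to its nearest neighbour took more of the group's range than Dixon's 95% critical value for 4 samples; 5 of 54 groups had one, and chance flags about 1 in 20 groups. Nr1i3 on day 7 replicate 2 was at 9.38, against 7.16 to 7.48 on the other day 7 arrays. Nr6a1 on day 20 replicate 1 was at 7.79, against 8.02 to 8.05, and without that array the fall was 0.29 (limma adjusted p = 0.0585). On the same array Nr1i2 was at 8.06, against 8.35 to 8.38. Esrra on day 20 replicate 4 was at 11.09, against 10.83 to 10.87. Esrrb on day 7 replicate 1 was at 6.72, below the background limit, against 6.90 to 6.92.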

How the results depend on the processing

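The fall of Esrrg kept its direction and call in all 17 alternatives (-3.05 to -1.49). Nr6a1 kept its direction in all 17 (-0.51 to -0.28) and its call in 6. The number of changed members was 2, and 1 on the 6 arrays with Xist signal, with background subtracted and with a replicate block, and 1 to 3 with single arrays left out. Lower members numbered 1 in those 3 settings and with trended robust variance, and 1 to 3 with single arrays left out (3 without day 7 replicate 2, which adds Nr1i3); higher members numbered 0, 1 with trended robust variance (Pparg) and 0 to 1 with single arrays left out (Ppard, without day 7 replicate 3). All changed genes numbered 604, 401 with the replicate block and 301 to 579 with single arrays left out. They numbered 301 and 349 without replicates 1 and 3 of day 7, and 373 and 353 without replicates 2 and 4 of day 20. On the 6 arrays with Xist signal they numbered 413. Higher counts were 667 with array weights, 713 with background subtracted, 737 with trended robust variance and 633 with the strict filter. The remaining settings gave 517 with no filter, 582 with cyclic loess and 594 with averaged probes. The block had little ground. Arrays numbered 1 and 4 were of unlike sex between the days (Xist 10.01 and 9.87 at day 7, 6.68 and 6.74 at day 20). Deviations of same-numbered arrays correlated weakly, at 0.119, 0.0503, -0.00957 and 0.142 for numbers 1 to 4. Even so, 4 of 8 arrays correlated best with their own number, among 4 candidates each. With the block Nr6a1 (limma adjusted p = 0.103), Cyp3a13 (0.0776), Scnn1a (0.0792) and Cdx1 (0.0527) were past the threshold no longer.

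For 11 members that did not pass, all within 0.10 of 0, the sign changed in some setting, and the cause was not tested. On the 6 arrays with Xist signal the differences were -0.01 for Esrra, -0.0575 for Nr2f2, -0.13 for Nr4a2 and -0.3925 for Vdr, and -0.0275 for the target gene Trpv6. Cyclic loess gave -0.0107 for Nr2f2 and -0.0008 for Rora, array weights gave -0.001 for Nr2f2 and 0.0047 for Nr4a3, averaged probes -0.0142 for Rarg, and background subtraction -0.0547 for Rora. With single arrays left out the ranges were -0.0992 to 0.2475 for Esrra, -0.1117 to 0.0283 for Nr1d2, -0.0208 to 0.0825 for Nr2c1, -0.0192 to 0.0342 for Nr2f2, -0.0967 to 0.1267 for Nr4a2, -0.0425 to 0.0075 for Nr4a3, -0.12 to 0.0117 for Rara, -0.045 to 0.0517 for Rora, -0.0275 to 0.0692 for Thra and -0.1258 to 0.4775 for Vdr. The other 16 tested members kept their sign. Signal over background, not depth, limits the 7 members that exceeded the limit on only some arrays.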
